A study of Mus musculus with 6 samples.

Results

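The Six-Eya-Dach genes encode interacting regulators named after the fly genes sine oculis, eyes absent and dachshund. The 9 genes described here are Six2, Six4, Six5, Eya1, Eya2, Eya3, Eya4, Dach1 and Dach2. They were chosen by name, through the RefSeq accession that the scanner files give for each non-control probe, and account for 13 of 39429 probes and 9 of 20021 named genes. All 13 probes were well above background on all 6 arrays. Six3 and Six6 of the same family were also on the array and are given for comparison.

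RNA came from mouse heads at embryonic day 9.5, taken with the first branchial arch. The groups were heads null for Arid3b, which encodes an ARID family DNA-binding protein, and wild type heads, with 3 samples each and RNA of 4 embryos pooled per sample. The sources used here name no allele, strain or litter, so p-values measure only the spread between these pools. Each sample was hybridised to 1 one-colour Agilent array. In such bulk samples, fewer cells of a type and less RNA per cell cannot be told apart.

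Six-family proteins bind DNA through a homeodomain. Eya proteins do not bind DNA themselves; they are recruited by Six-family proteins, activate transcription and carry a phosphatase domain. Dach proteins are nuclear cofactors related to Ski that often act as repressors. In the vertebrate head the network marks the preplacodal ectoderm, which gives rise to the lens, the nasal and otic placodes and the placodal parts of the cranial ganglia. Several of its genes are also used in head mesoderm and arch mesenchyme.

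The window before the start site is shown for Six2, the member that passed the test below, and for its paralogue Six4. The difference of Six4 had the opposite sign and did not pass. Six5 also had a difference of opposite sign that did not pass, and its window, not shown, held none of the motifs marked below. Both are RefSeq sequences of build GRCm38.p6, from 250 bases to 1 base before the start site, 5′ to 3′ on the minus strand, at chr17:85688255-85688504 for Six2 and chr12:73113246-73113495 for Six4. Capitals mark exact matches, on either strand, to ATTAAA (an AT-rich motif), ACGTG (the core of the hypoxia response element) or TCAGGTTTC (the MEF3 motif, a known binding sequence of Six-family proteins).
Six2: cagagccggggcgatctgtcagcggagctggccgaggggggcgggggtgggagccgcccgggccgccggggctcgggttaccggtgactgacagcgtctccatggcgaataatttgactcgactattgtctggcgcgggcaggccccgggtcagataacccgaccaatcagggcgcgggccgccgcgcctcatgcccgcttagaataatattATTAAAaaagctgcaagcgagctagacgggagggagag
Six4: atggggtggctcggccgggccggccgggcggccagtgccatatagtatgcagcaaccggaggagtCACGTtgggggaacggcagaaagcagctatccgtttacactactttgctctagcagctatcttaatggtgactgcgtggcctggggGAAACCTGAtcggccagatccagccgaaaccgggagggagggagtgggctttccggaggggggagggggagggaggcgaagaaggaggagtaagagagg
The Six2 window held 1 match to ATTAAA, ending 33 bases before the start site. The Six4 window held 1 match to ACGTG and 1 to TCAGGTTTC, both on the opposite strand, ending 181 and 91 bases before the start site. Of 32851 such windows in the table, 12.7% held ATTAAA, 16.6% held ACGTG and 0.387% held TCAGGTTTC. A second Six4 window, which overlaps the one shown, held the same ACGTG match. The table gave windows for 7 of the 9 members, and the windows of Six5, Eya3, Eya4, Dach1 and Dach2 held none of the 3 motifs. Eya1 and Eya2 have no entry. These matches are letters in a sequence, not measured binding.

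On each array, 67.9% to 70.3% of non-control spots were well above background, no spot was saturated, and the processed signal had a 75th percentile of 626 to 977. Below, a level is the relative signal, the processed signal divided by that percentile on the same array, and a difference is log2 Arid3b-null minus wild type ± its limma standard error (n = 3 arrays each). Each slide held the null and the wild type array of 1 replicate number, with null arrays always in position 2 and wild type arrays in position 1. Genotype and array position therefore cannot be told apart. Correlations across genes, which are not independent replicates, were 0.992 to 0.993 among null arrays, 0.977 to 0.986 among wild type arrays and 0.965 to 0.975 between groups. Wild type replicate 3 was the wild type array nearest to the null mean for 6 of the 9 members, and for 42.5% of all genes. Members whose call or sign differs without it, or whose difference moves by over 1.5 times, are given with that value. The head markers Otx2 and Nes passed the filter on background, and of the posterior Hox genes, Hoxc9 and Hoxd9 were well above background on none of the 6 arrays, while Hoxa9 passed the filter.

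Arid3b, the targeted gene, was examined first. Its brightest probe had relative signals of 2.41, 2.09 and 2.71 in null heads, against 3.96, 4.80 and 8.54 in wild type heads. The groups did not overlap, and the difference was -1.19 ± 0.29 (limma adjusted p = 0.0266). The call was lost without null replicate 1, 2 or 3, with limma adjusted p of 0.0860, 0.0839 and 0.0690. It was also lost with no filter on dim probes (limma adjusted p = 0.0599). The other 2 Arid3b probes, both dimmer, differed by -2.33 and -1.37 with no overlap (limma adjusted p over probes of 7.59e-04 and 0.0224), and the mean of the probes by -1.63 (limma adjusted p = 0.00378). No source used here says which part of Arid3b was deleted, so the probes cannot be placed against it and these values are no check of the labels.

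Six2 was the 1 member of 9 that passed the test between null and wild type heads, and it was lower in null heads. Across all genes, 23.5% passed (3508 of 14916), with 12.3% higher and 11.2% lower. The arrays of the groups did not overlap for 4 of the 9 members, higher in null heads for Six4 and Eya2 and lower for Six2 and Eya3. The same held for 42.4% of all genes. Of the 9 differences, 3 were above 0 and 6 below, with a median of -0.22, against -0.04 over all genes. Their median size without sign was 0.39, against 0.34 over all genes, so the members stood near the background of this comparison in both share and size.

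**Figure D1:**
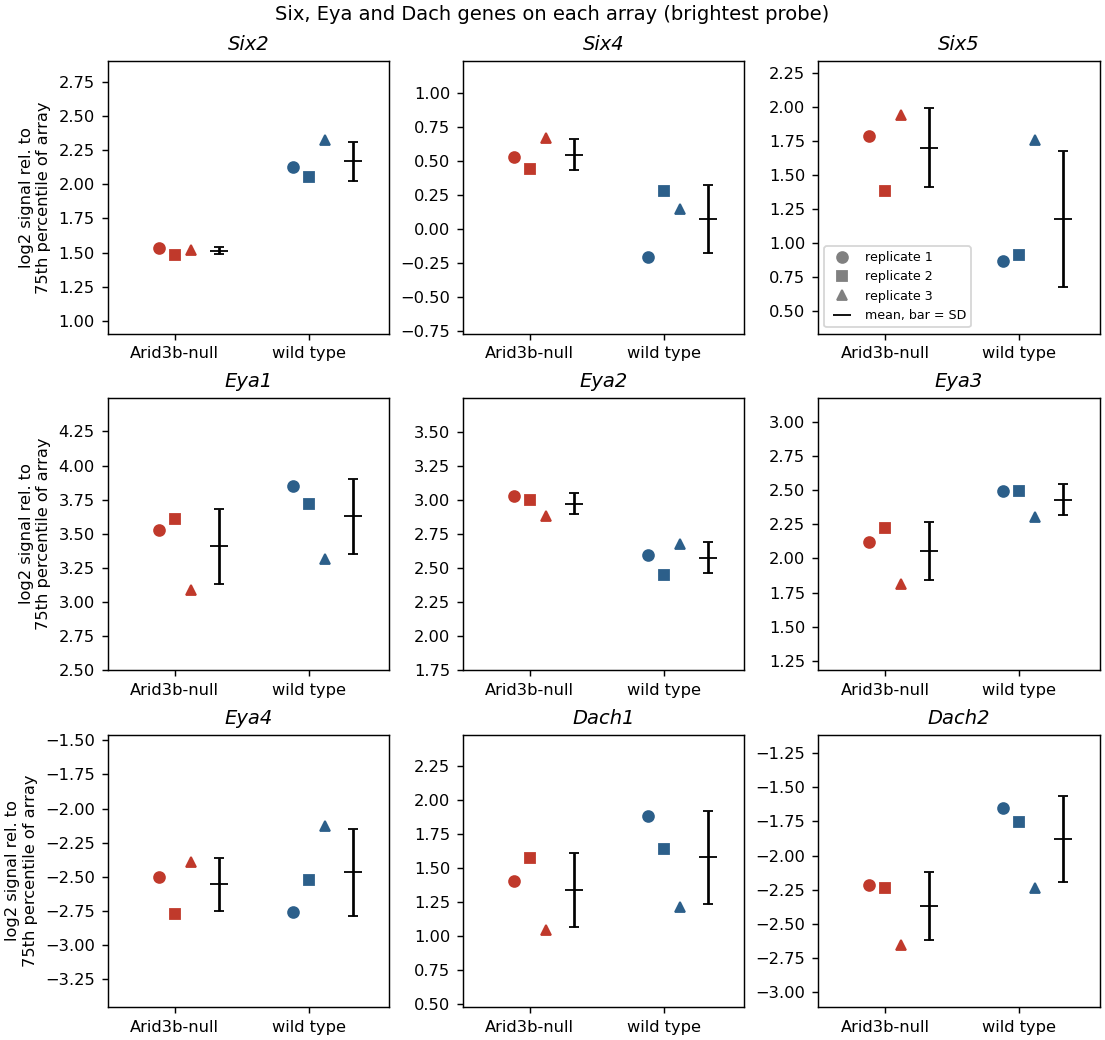
The log2 relative signal of the 9 members on each array is plotted in 1 panel per gene, with Arid3b-null arrays on the left and wild type arrays on the right; symbols stand for replicate numbers, black marks for the mean with its SD, and every panel spans 2 log2 units. The null arrays lie below all wild type arrays for Six2 and Eya3 and above them for Six4 and Eya2, while wild type replicate 3 lies among the null arrays for Six5.

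Among the Six-family genes, Six2 is known for keeping nephron progenitors undifferentiated in the kidney, and it is also expressed in facial mesenchyme. Its brighter probe had relative signals of 2.90, 2.80 and 2.87 in null heads, against 4.37, 4.15 and 5.02 in wild type heads. All null arrays lay below all wild type arrays, and the null arrays differed little among themselves, with means of 2.86 ± 0.05 and 4.51 ± 0.45 (SD, n = 3 each). The level was 1.57-fold lower in null heads (log2 difference -0.66 ± 0.13, limma adjusted p = 0.0143). Within slides 1, 2 and 3 the difference was -0.59, -0.57 and -0.81, and with slide as a block the adjusted p was 0.0257.

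A second Six2 probe of the same accession was dimmer. It read 0.113, 0.0864 and 0.140 in null heads, against 0.157, 0.171 and 0.252 in wild type heads, again with no overlap. As a single probe among 26299, of which 18.0% passed, its difference was -0.76 ± 0.25 (limma adjusted p = 0.0806, and 0.0422 with slide as a block). Without null replicate 1 or 2 the call of the brighter probe was lost, at differences of -0.67 and -0.64 and limma adjusted p of 0.0630 and 0.0576.

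Six4 acts in muscle, kidney and sensory ganglia. It had relative signals of 1.44, 1.36 and 1.59 in null heads, against 0.870, 1.21 and 1.11 in wild type heads. The null arrays were all above the wild type arrays, yet the difference of 0.47 ± 0.17 did not pass (limma adjusted p = 0.0816; 95% interval 0.08 to 0.87). It passed under 1 of 17 alternatives, normexp background correction, at 0.46 and an adjusted p of 0.0413.

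Six5 lies beside the gene whose repeat expansion causes myotonic dystrophy in humans. Its relative signals were 3.45, 2.60 and 3.85 in null heads, against 1.83, 1.89 and 3.38 in wild type heads. The groups overlapped because wild type replicate 3 was higher than null replicate 2. The difference of 0.52 ± 0.28 did not pass (limma adjusted p = 0.217; 95% interval -0.13 to 1.18). Without wild type replicate 3 it was 0.81 (limma adjusted p = 0.0207).

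Six3 and Six6 differed in sign as well. Six3, of the anterior forebrain and lens, had a difference of 0.39 ± 0.17 (limma adjusted p = 0.137), and passed without wild type replicate 3 at 0.51 (limma adjusted p = 0.0464). Six6, of the eye and pituitary, read 0.186, 0.160 and 0.173 in null heads, against 0.375, 0.347 and 0.273 in wild type heads, a difference of -0.93 ± 0.16 (limma adjusted p = 0.00876). In the RefSeq gene order, Six3 and Six2 lie next to each other on chromosome 17, with 0 protein-coding genes between them. The differences of these neighbours had opposite signs, below 0 for Six2 and above 0 for Six3, though of this pair only Six2 passed the test.

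**Figure D2:**
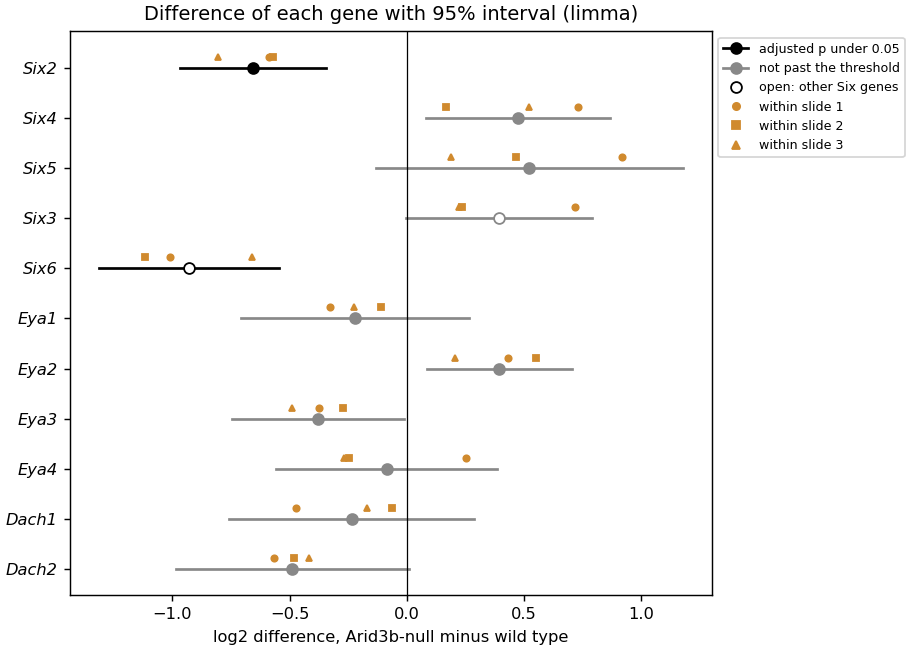
Each circle is the log2 difference, Arid3b-null minus wild type, of a gene with its 95% interval; black marks an adjusted p under 0.05, open circles are Six-family genes outside the 9 members, and small orange symbols are the differences within each slide. Six2 and Six6 lie below 0 with intervals that leave out 0, the intervals of Six4 and Eya2 lie above 0 and that of Eya3 below 0 without passing after adjustment, and Eya4 is the gene whose slides differ in sign.

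Among the Eya coactivators, Eya1 is the gene mutated in human branchio-oto-renal syndrome and is needed for the ear and the arches. Its relative signals were 11.5, 12.2 and 8.51 in null heads, against 14.4, 13.1 and 9.97 in wild type heads. Replicate 3 was the lowest array of each group, and the groups overlapped. The difference was -0.22 ± 0.21 (limma adjusted p = 0.478), with a 95% interval of -0.71 to 0.27. It was -0.38 without wild type replicate 3, -0.06 without null replicate 3 and -0.05 after quantile normalization, and passed in none of these.

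Eya2, which is expressed in placodes and muscle precursors, read 8.15, 7.99 and 7.37 in null heads, against 6.04, 5.47 and 6.40 in wild type heads. The lowest null array was above the highest wild type array, with means of 7.84 ± 0.41 and 5.97 ± 0.47 (SD, n = 3 each). The difference of 0.39 ± 0.13 did not pass (limma adjusted p = 0.0693; 95% interval 0.09 to 0.70), and was 0.43, 0.55 and 0.20 within slides 1, 2 and 3. It passed under 5 of 17 alternatives. These were without wild type replicate 3 (0.45, limma adjusted p = 0.0414), quantile normalization (0.52, adjusted p = 0.0368) and normexp (0.60, adjusted p = 0.00870). The others were limma's trend and robust options (0.39, adjusted p = 0.0387) and array weights (0.49, adjusted p = 0.00823). Over the 17 the difference was 0.33 to 0.60, with limma adjusted p up to 0.218.

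Eya3 is the broadly expressed member of the family. Its relative signals of 4.36, 4.67 and 3.52 in null heads all lay below those of 5.65, 5.64 and 4.94 in wild type heads. The difference of -0.38 ± 0.16 did not pass (limma adjusted p = 0.124; 95% interval -0.75 to -0.01).

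Eya4, linked to human hearing loss and cardiomyopathy, was dim. It read 0.176, 0.146 and 0.191 in null heads, against 0.148, 0.174 and 0.229 in wild type heads. The groups overlapped, and the difference was above 0 on slide 1 (0.25) and below 0 on slides 2 and 3 (-0.25 and -0.27). The overall difference was -0.09 ± 0.20 (limma adjusted p = 0.790; 95% interval -0.56 to 0.38), and turned to 0.085 without wild type replicate 3.

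Of the Dach cofactors, Dach1 had relative signals of 2.66, 2.98 and 2.06 in null heads, against 3.69, 3.11 and 2.32 in wild type heads, on its brighter probe. The groups overlapped, with a difference of -0.24 ± 0.22 (limma adjusted p = 0.481; 95% interval -0.76 to 0.29). It was -0.42 without wild type replicate 3 and -0.09 without null replicate 3, and passed in neither. A dimmer Dach1 probe read 0.268, 0.309 and 0.258 in null heads, against 0.517, 0.356 and 0.317 in wild type heads. Its groups did not overlap, and its difference of -0.48 ± 0.21 did not pass (limma adjusted p = 0.163).

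Dach2 had 3 probes from 2 RefSeq accessions. The brightest read 0.216, 0.212 and 0.158 in null heads, against 0.319, 0.296 and 0.212 in wild type heads; wild type replicate 3 lay within the null range. Its difference of -0.49 ± 0.21 did not pass (limma adjusted p = 0.137; 95% interval -0.98 to 0.01). It was -0.57, -0.48 and -0.42 within slides 1, 2 and 3. It passed under 3 of 17 alternatives, among them slide as a block (adjusted p = 0.0477) and without wild type replicate 3 (-0.67, limma adjusted p = 0.0297).

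The other Dach2 probes match another accession and were dim, though well above background by the scanner's flag, with processed signals of 28.0 to 39.7 and 9.56 to 15.1 in null heads, against 20.2 to 30.4 and 9.13 to 16.3 in wild type heads. Their groups overlapped, with differences of 0.24 ± 0.20 and -0.14 ± 0.24 (limma adjusted p = 0.460 and 0.733). The brightest Dach2 probe therefore did not share its sign with all probes of the gene, and the mean of the 3 probes differed by -0.13.

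Levels of different paralogues are not ranked here, since probes differ in how strongly they bind their target. A ratio of paralogues on 1 array is free of the scaling between arrays, and its change between groups shows unequal change. Such ratios were computed for 5 pairs, chosen after the values were seen. The log2 ratio of Six4 to Six2 was -1.01, -1.04 and -0.85 in null heads, against -2.33, -1.78 and -2.18 in wild type heads, a shift of 1.13 or 2.19-fold. The ratio of Six5 to Six2 shifted by 1.18.

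The log2 ratio of Eya2 to Eya3 was 0.90, 0.78 and 1.07 in null heads, against 0.10, -0.05 and 0.37 in wild type heads, a shift of 0.77 or 1.71-fold. The ratio of Eya2 to Eya1 shifted by 0.62 and that of Dach2 to Dach1 by -0.25. None of the 5 overlapped between groups. Each had an exact two-sided permutation p of 0.1, also 0.1 after adjustment over the 5, which is the smallest that 3 against 3 arrays allow. The pairs were picked by values already seen, so neither the lack of overlap nor these p-values test the shifts. Among single genes, 42.4% did not overlap, and the share over other pairs of genes was not computed. The Six-pair shifts kept their sign under 17 alternatives, at 0.95 to 1.29 for Six4 to Six2. The Eya-pair shifts kept theirs under 16, at 0.68 to 0.89 for Eya2 to Eya3. Eya1 and Eya3 were not tested in the deposited value table. The Dach ratio shifted by -0.0053 with the probe of the largest spread for each gene, and turned to 0.23 when the probes of each gene were averaged.

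**Figure D3:**
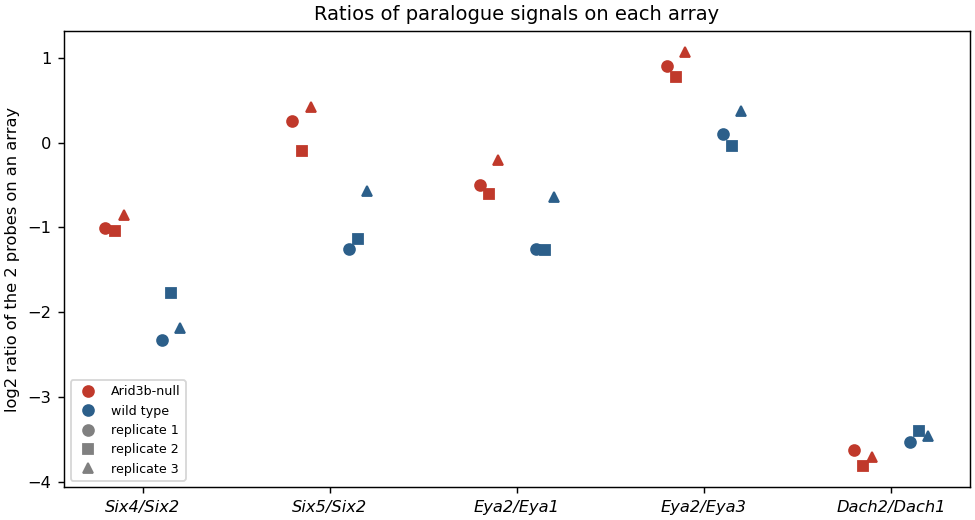
The log2 ratio of a pair of paralogue signals on the same array is plotted for 5 pairs, with Arid3b-null arrays (red) left of wild type arrays (blue) and symbols for replicate numbers. Null arrays lie above wild type arrays for the Six-family and Eya pairs and below them for Dach2 to Dach1, where the group means differ by 0.25.

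Genes that work with the network were described from lists chosen with earlier results of these data known. Their counts stand beside the 12.3% of all genes that rose and the 11.2% that fell, and the median of -0.04 over all genes. Of 18 placode ectoderm regulators, 2 rose (Tfap2a, an early ectoderm and crest factor, 0.97 ± 0.13, and Irx1) and Sox3, a SoxB1 factor of neural and placodal ectoderm, fell (-0.87 ± 0.16), with a list median of -0.04, equal to that of all genes. Of 19 tested partners and targets, Fgf8, a ligand of the pharyngeal and nasal epithelium, rose (0.65 ± 0.15) and the cyclin gene Ccnd1 fell (-1.20 ± 0.13), with a median of 0.15. The limma adjusted p were 0.00347 for Tfap2a, 0.00982 for Sox3, 0.0202 for Fgf8 and 0.00219 for Ccnd1. The call of Fgf8 was lost without any 1 of null replicates 1, 2 and 3 or wild type replicates 1 and 2, with limma adjusted p of 0.0556 to 0.0917. That of Irx1 (0.49 ± 0.13, limma adjusted p = 0.0309) was lost without any 1 of the same arrays, at 0.0570 to 0.128. It was also lost with no filter on dim probes, at 0.0660. Ski, Skil, Sobp and the Tle corepressor genes did not pass.

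Markers of placodal derivatives were set beside the network. Of 10 otic and olfactory markers, the otic homeobox genes Hmx2 (1.13 ± 0.16) and Hmx3 (1.05 ± 0.18) rose and Oc90, which encodes an otoconial protein of the otic vesicle, fell (-2.50 ± 0.36), with limma adjusted p of 0.00414, 0.00817 and 0.00483. With normexp, Hmx2 was 0.59 and Oc90 -1.38, and both still passed. Of 10 tested genes of placodal sensory neurons, 1 rose and 3 fell, with a median of -0.65, against 23.5% of all genes called in either direction. The gene that rose was Phox2a, a homeobox gene of visceral neurons, at 0.90 ± 0.16 (limma adjusted p = 0.00960). Whether the difference between lists exceeds their spread was not tested.

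Markers of the cells that use these genes gave the following values beside the Six2 result. Of 8 cranial neural crest markers, 1 rose and 2 fell, and their summed relative signal was 11.7 to 13.7 in null heads, against 10.4 to 13.6 in wild type heads. Of 9 surface ectoderm markers none passed in limma, and the sum was 36.8 to 39.2 in null heads, against 24.2 to 49.9 in wild type heads. Of 8 cranial muscle precursor markers 3 were bright enough to test. Of these 1 rose, Pax7, which is also a dorsal neural gene (0.85 ± 0.24, limma adjusted p = 0.0442). The sum, most of it Pax7, was 0.81 to 1.05 in null heads, against 0.44 to 0.74 in wild type heads. That sum therefore cannot be read as a level of muscle precursors. The Pax7 call was lost without any 1 of null replicates 1, 2 and 3 or wild type replicates 1 and 2 (limma adjusted p = 0.0839 to 0.144), with median centring (0.0508) and with no filter on dim probes (0.0899). Myf5, Myod1, Myog, Msc and Musk were not well above background on all arrays of either group. The part of these cells in the differences of Six2 and its relatives was not tested.

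Senp3 was among the 2 genes nearest to Six2 over the 6 arrays, by the root mean square distance of log2 values centred on each gene's mean (0.040, difference -0.61). This likeness is a description over 6 arrays that fall into 2 groups.

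**Figure D4:**
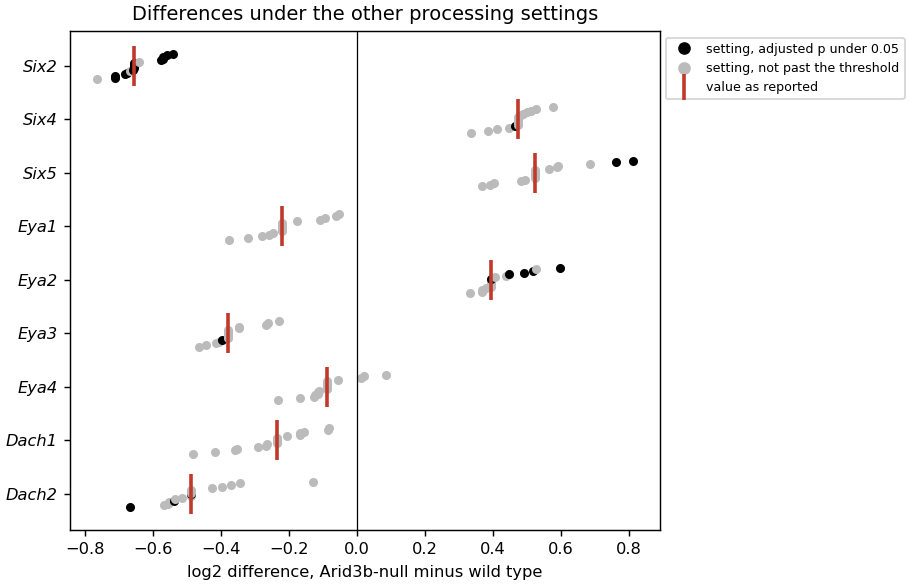
Each dot is the log2 difference, Arid3b-null minus wild type, of a member under 1 alternative setting, black where its adjusted p was under 0.05 and grey otherwise; red bars are the values reported above. Six2 stays between -0.76 and -0.54, and Eya4 is the member whose dots cross 0.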

How the data were processed

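Scanning output came from Agilent Feature Extraction 10.7.3.1. The deposited scanner files hold 1 background-subtracted, detrended intensity per spot, median signals and flags, per the file headers. The authors' deposited value table holds log2 values, with column medians of 6.76 to 6.77; it follows the scanner signal of each array at r of 0.999 or more across probes, and no source used here gives its scaling and centring.

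From these, log2 processed signals were taken and lowered by each array's 75th percentile over non-control spots. Control and outlier spots were left out. A RefSeq accession (GRCm38.p6 table) named 26424 of 39429 probes. Kept were 26299 probes that passed the background flag on every one of the 3 arrays in either group, with values from 5 or more arrays, the brightest standing for each of 14916 genes. The test was limma 3.58.1 under R 4.3.3 (lmFit, eBayes, Benjamini-Hochberg over all genes, threshold 0.05), after tests on simulated data. The number of arrays limits precision. Normexp used median signals with an offset of 50, since the files analysed here give no mean signals.

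The members and gene lists were chosen with earlier results of these data known. Named are all members and Arid3b, up to 4 called genes per list, and the 2 genes nearest to a called member; some such genes are not reported here. Ski, Skil, Sobp, the Tle genes and markers named as dim were added after their values were seen.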

Additional observations from a re-analysis of the deposited data

How the results depend on the processing

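The members called were 1 of 9 in the main setting and also with median centring, the deposited value table (7 members tested), no filter on dim probes, probes above background on all 6 arrays and the mean of a gene's probes. They were 2 after quantile normalization and with limma's trend and robust options, 3 with normexp, 5 with array weights, 0 with the probe of the largest spread (the dimmer Six2 probe, limma adjusted p = 0.0702), 0 to 4 leaving out 1 array, 0 at a threshold of 0.01 and 3 at 0.10. Array weights, the lowest of which (0.254) fell on wild type replicate 3, called Six2, Eya2, Eya3, Six5 and Dach2. Genes called were 3508, against 2270 without the filter on dim probes, 6676 with array weights, 1515 to 5202 leaving out 1 array and 1273 at 0.01. With the replicate number, which is also the slide, as a block, 3693 genes and 2 members were called, Dach2 being added; no other member changed its call. Same-numbered arrays share a slide, and the main test did not treat them as pairs. Their deviations from group means correlated at -0.20, 0.15 and 0.42, against -0.52 to 0.49 for arrays of unlike number. With 3 arrays per group the deviations within a group are tied to each other, so these values cannot decide whether the numbers are pairs. Six2 was -0.76 to -0.54 over 17 alternatives. Differences turned their sign for Eya4 (-0.23 to 0.085 leaving out 1 array, 0.012 with array weights, 0.021 without null replicate 2, 0.085 without wild type replicate 3), for the dimmest Dach2 probe (0.039 after quantile normalization and in the deposited table, 0.0030 with normexp, -0.33 to 0.028 leaving out 1 array) and for the ratio of Dach2 to Dach1 (0.23 with the mean of a gene's probes); the cause was not tested.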

Other observations

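Other cell type lists of the same heads moved in both directions. Of 9 head neuroectoderm markers 1 rose and 2 fell, with a median of 0.09. Nes, an intermediate filament gene of neural progenitors, was at -0.93 ± 0.14 (limma adjusted p = 0.00477). Otx2 rose by 0.57 ± 0.16 (limma adjusted p = 0.0401), a call lost under 6 of 17 alternatives. Of 7 tested trunk and somite markers 1 rose and 2 fell, with a median of -0.50. Tbx6, a T-box gene of presomitic mesoderm, rose by 1.90 ± 0.15 (limma adjusted p = 9.08e-04), and Tbx18 fell by 0.88 ± 0.12 (limma adjusted p = 0.00402). Tbx6 was 0.99 with the mean of its probes and Tbx18 -0.42 with normexp, and both still passed. Across all genes, 12.3% rose and 11.2% fell. The summed relative signal of trunk markers was 0.90 to 1.01 in null heads, against 0.88 to 0.92 in wild type heads. That sum includes the rise of Tbx6, while every other tested trunk marker had a difference below 0. It therefore cannot be read as a level of trunk cells. Of 8 cranial neural crest markers 1 rose and 2 fell, with a median of 0.25. Dlx2, of the first arch crest, fell by 1.13 ± 0.17 (limma adjusted p = 0.00542). Ets1 rose by 0.57 ± 0.12 (limma adjusted p = 0.0184), a call lost under 6 of 17 alternatives.

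Of 7 primitive erythroid markers 1 fell, and the sum was 421 to 856 in null heads, against 536 to 740 in wild type heads. Of 5 tested heart markers none passed in limma, and the sum was 0.45 to 0.51 in null heads, against 0.38 to 2.54 in wild type heads. Both ranges overlapped between the groups.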
